A study of Homo sapiens with 9 samples.

Results

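Oxidative phosphorylation subunits were taken as the genes whose symbol matches a fixed pattern: the NDUF series without the NDUFAF assembly factors, SDHA to SDHD, the UQCR series, COX4 to COX8, the ATP5F, ATP5M and ATP5P series, CYC1 and CYCS. The pattern matched 83 of the 19775 genes on the arrays. Of these, 78 code for subunits or for cytochrome c and 5 do not (ATP5MC2P1, COX6A1P1, NDUFB2-AS1, NDUFV1-DT and NDUFV2-AS1). The pattern uses no measured value, but it was chosen with earlier results of these data known. The probe set kept for each gene was the one with the highest mean over all arrays. The cells were PANC-1, an established human pancreatic ductal carcinoma line, exposed to 5 uM of the small molecule BRD7552 for 6 h or 72 h, or to the solvent DMSO. RNA from 3 samples per group was measured on 9 Affymetrix arrays with 54675 probe sets. The DMSO arrays carry no exposure time, so time in culture and treatment cannot be told apart at 72 h. Nothing in the labels says that the 3 samples of a group were separate cultures, so p-values measure the spread between these samples, which may be technical.

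Complexes I to IV pass electrons from NADH and succinate to oxygen and, at complexes I, III and IV, pump protons across the inner mitochondrial membrane. Complex V, the ATP synthase, uses the return flow of protons to make ATP. Most subunits are coded in the nucleus and imported, while a small set is coded by mitochondrial DNA, which was not analysed here. Subunits with a counterpart in bacterial enzymes are called core here. Accessory subunits lack one and serve assembly, stability and regulation. The 3 complex II subunits tested here are all core and the 12 of complex IV all accessory, so this split partly follows the complexes.

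A gene was tested if its mean log2 signal reached the median over all probe sets, a linear signal of 17.8. Of the 78 subunit genes, 72 passed, against 12678 of all 19775 genes. Those tested were 33 of 33 in complex I, 3 of 3 in complex II, 7 of 7 in complex III, 12 of 17 in complex IV, 16 of 17 in complex V, and CYCS. These are not whole complexes: SDHB and UQCRFS1 were not analysed here, nor were NDUFS8, NDUFS5, NDUFC2 and UQCRH, which share their probe sets with other genes. The 6 that did not pass were COX6A2, COX6B2, COX7A1, COX7B2, COX8C and ATP5MF, with mean signals from 6.99 to 14.5. ATP5MF had 1 probe set here, and probe sets with several symbols, such as those naming ATP5MF-PTCD1, were left out. Its low signal therefore does not show that its RNA was absent. Of the 5 genes that are not subunits, 3 were tested and 0 were called in any comparison. Over all genes, 0.473% were called at 6 h against DMSO, 26.6% at 72 h against DMSO and 24% at 72 h against 6 h. With 3 genes, a lack of calls says little.

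Among keratins of simple epithelium, mean signals were 15837 for KRT18, 7895 for KRT8 and 6548 for KRT19, but 101 for KRT7. EPCAM had 461, and 9 of 11 duct and epithelial markers passed the filter. No marker of pancreatic acinar cells passed the filter (0 of 3). Few others did: 1 of 5 for leukocytes (ITGAM), 1 of 5 for endothelium (PECAM1) and 1 of 5 for germ cells (PRM1). For muscle 2 of 6 passed (ACTN2 and MB), and for fibroblasts 2 of 5 (COL1A1 and DCN), with a highest mean of 566. Array medians lay between 16.2 and 18.8. The upper quartile was 97.5 and 99.7 on replicates 2 and 3 at 72 h, against 112 to 119 on the other arrays. The 3'/5' signal ratio of ACTB, a sign of RNA integrity, was 2.07 to 2.21 at 72 h and 1.74 to 2.05 on the other arrays. The same value, to the last digit, recurred on at least 2 arrays in 26 of the 72 tested subunits (36.1%) and in 59.2% of all probe sets. Such ties can make the spread within a group too small, and 3 of the 23 subunits called at 72 h had such a tie within a group.

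At 6 h no subunit passed the test. Of the 72 tested, 0 were called at an adjusted p below 0.05 in limma, where 0.473% of all genes were called (0.363% higher and 0.11% lower), and 0 had an unadjusted p below 0.05, against 4.59% of all genes. The median log2 difference from DMSO was -0.016 over the subunits and -0.00095 over all genes. Differences ran from -0.11 for NDUFA7 to 0.092 for UQCRC1. Of the 72, 54 were negative, against 6399 of 12678 over all genes. The subunits share the same arrays and are not replicates. By complex the medians were -0.017 for complex I, -0.0057 for complex II, -0.014 for complex III, -0.024 for complex IV and -0.0028 for complex V. All 6 h arrays lay below all DMSO arrays for 6 subunits, namely NDUFA7, NDUFAB1, NDUFC1, COX6B1, COX8A and ATP5F1A (background 5.94%). They lay above for 0 (background 6.26%).

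At 72 h 20 of the 72 subunits rose, where 8.33% of all genes rose, and 3 fell, where 18.3% of all genes fell. The other 49 were not called. Counted in either direction, 23 of 72 were called (31.9%), close to the 26.6% of all genes, and 32 of 72 had an unadjusted p below 0.05, against 36.9% of all genes. The median log2 difference from DMSO was 0.059 over the subunits and -0.062 over all genes tested. The subunit median was 0.033 without 72 h replicate 1 (all genes -0.095) and 0.027 with the mean of a gene's probe sets (all genes -0.076). The 72 h arrays all lay above the DMSO arrays for 26 subunits (background 12%) and below for 5 (background 24.9%). Among the called subunits the largest rise, of ATP5F1D, was 1.32-fold, and the largest fall, of NDUFS3, was to 0.88 of DMSO. With arrays centred on their medians 9 subunits were higher and 0 lower, against 6.47% and 9.99% of all genes. Without the intensity trend in the variance 8 were higher and 1 lower (6.07% and 14.9% of all genes), and with the mean of a gene's probe sets 10 and 3 (4.86% and 15.9%). Without DMSO replicate 3 they were 14 and 1 (5.66% and 12.4%). Of 13 other probe sets above the filter for 10 of the called subunits, 11 had the same sign and 4 were called. Calls of NDUFA3, NDUFB3, NDUFB10 and ATP5F1D held under all 20 alternatives. An array signal cannot tell apart a change in the share of cells that express a gene from a change in its RNA per cell.

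**Figure D1:**
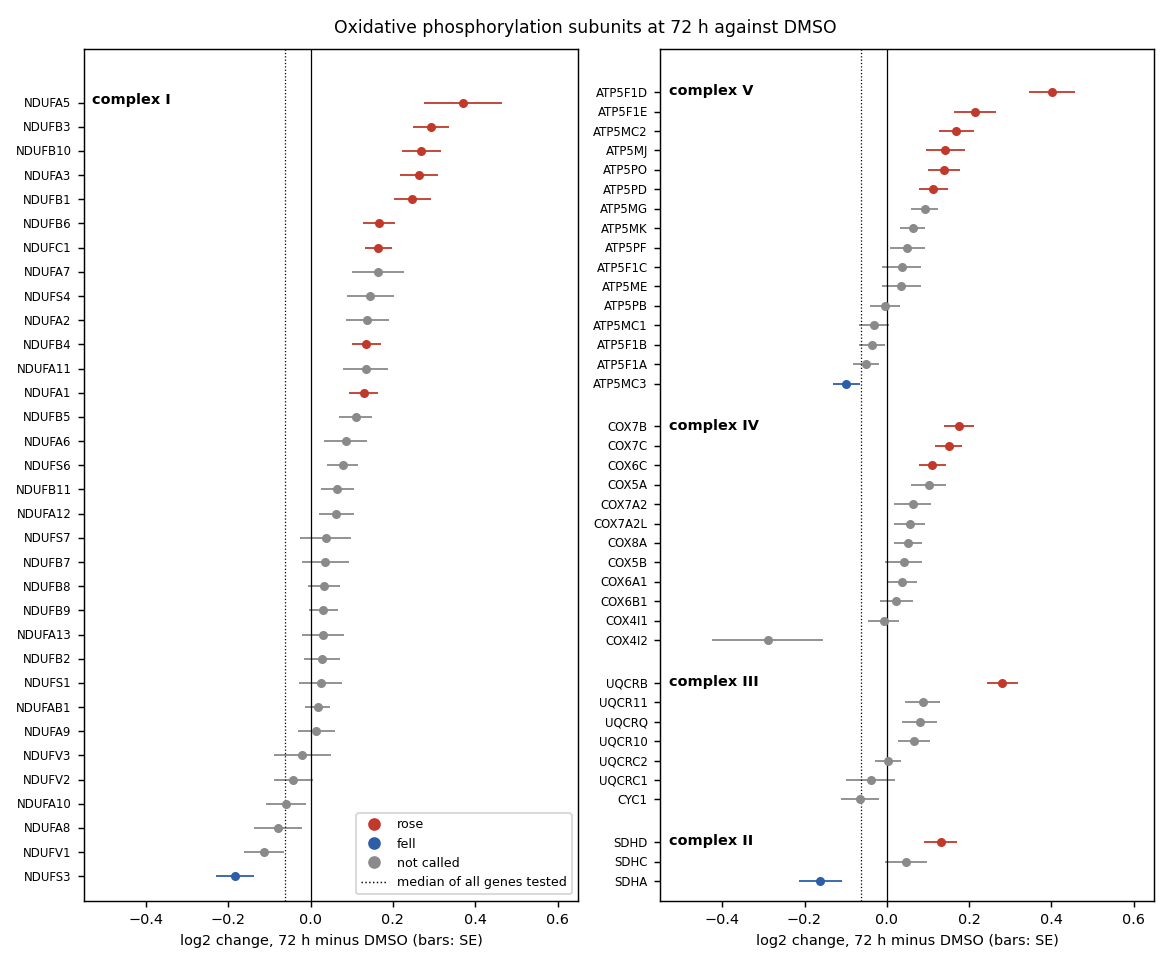
Log2 difference between 72 h and DMSO (x axis) for each of the tested subunits of complexes I to V (y axis), with bars of 1 standard error, n = 3 arrays per group. Points of subunits that rose run from 0.11 to 0.40, the 3 that fell lie between -0.18 and -0.099, and the dotted line marks the median of all genes at -0.062.

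Most subunits lay in the upper part of the brightness range. Among 1141 tested genes with a mean signal of at least 1830, a bound chosen after the data were seen, 17.5% rose and 20.9% fell, with a median of -0.0033. Of the 54 subunits in that range, 17 rose and 1 fell, with a median of 0.064. By complex, the medians at 72 h were 0.065 for complex I (9 rose and 1 fell of 33), 0.053 for complex IV (3 rose and 0 fell of 12) and 0.057 for complex V (6 rose and 1 fell of 16). Complex III had a median of 0.066 (1 rose and 0 fell of 7), which turned to -0.034 with the mean of a gene's probe sets, and complex II one of 0.046 (1 rose and 1 fell of 3). No difference between complexes was tested.

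The size of the shift differed between the 72 h arrays. For complex I the median difference from the DMSO mean was 0.14 on replicate 1, 0.041 on replicate 2 and 0.014 on replicate 3. Over all genes the same medians were 0.0024, -0.12 and -0.059. Replicate 1 was the highest of the 3 for every complex. Without replicates 2 and 3 at 72 h, the arrays with the low upper quartile, 24 subunits were called higher and 0 lower, where 9.94% of all genes were higher and 8.12% lower. The median was then 0.12, against 0.0020 over all genes; the remaining array was assumed to vary like the other groups.

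**Figure D2:**
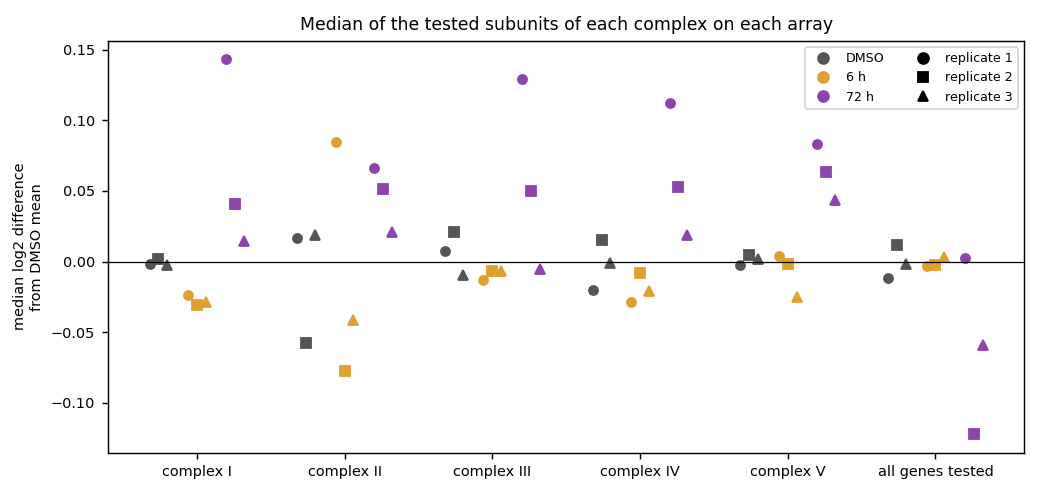
Median over the tested subunits of each complex, and over all genes tested, of the log2 difference from the DMSO mean (y axis), 1 point per array, by group (colour) and replicate (shape). At 72 h complex I sits at 0.14, 0.041 and 0.014 while all genes sit at 0.0024, -0.12 and -0.059.

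Complex I oxidises NADH. NDUFA5, an accessory subunit of its peripheral arm, had signals of 888, 961 and 874 in DMSO, 704, 942 and 981 at 6 h, and 1138, 1129 and 1253 at 72 h. All 72 h arrays were above all others, and the low 6 h value came from replicate 1. The log2 difference at 72 h was 0.37 (SE 0.095, adjusted p = 0.0090), but the call was lost without 72 h replicate 3 and without the intensity trend. NDUFB3, of the membrane arm, had 1301, 1378 and 1325 in DMSO, 1387, 1316 and 1387 at 6 h, and 1668, 1577 and 1659 at 72 h. Its 72 h arrays stood clear of the other 6, with a log2 difference of 0.29 (SE 0.043, adjusted p = 0.00016). NDUFB10, also of the membrane arm, had 2178, 2206 and 2203 in DMSO, 2227, 2258 and 2089 at 6 h, and 2857, 2557 and 2537 at 72 h. Replicate 1 was the highest at 72 h and no groups overlapped between 72 h and the rest. The log2 difference was 0.27 (SE 0.048, adjusted p = 0.00070), and a second probe set of NDUFB10 gave 0.26.

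The other complex I subunits that rose were NDUFA3 (log2 difference 0.26), NDUFB1 (0.25), NDUFB6 (0.17), NDUFC1 (0.16), NDUFB4 (0.14) and NDUFA1 (0.13), the last called under 13 of 20 alternatives. A dim second probe set of NDUFC1 gave -0.18 (adjusted p = 0.53). All 9 are accessory. By naming series, 5 of 11 NDUFB subunits rose, with a median of 0.11. All 11 differences were positive, against 4759 of 12678 over all genes. In the NDUFA series, 3 of 13 rose, with a median of 0.086. In the NDUFS and NDUFV series none of the 5 and 3 tested subunits rose, and 1 of them fell (NDUFS3). Among all genes 8.33% rose and 18.3% fell. With so few subunits, the lack of rises in these 2 series is near that share.

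The fall in complex I was that of NDUFS3, a core subunit of the arm that leads to the quinone site. Its signals were 1623, 1582 and 1599 in DMSO, 1675, 1546 and 1551 at 6 h, and 1482, 1384 and 1366 at 72 h. The 72 h arrays lay below the other 6. The log2 difference was -0.18 (SE 0.046, adjusted p = 0.0079). The call was lost with arrays centred on their medians and without 72 h replicates 2 and 3. NDUFV1, which holds the NADH site, differed by -0.11 (adjusted p = 0.11), NDUFS1 by 0.024 (adjusted p = 0.79) and NDUFS7 by 0.036 (adjusted p = 0.73), both iron-sulphur subunits.

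Complex II, succinate dehydrogenase, belongs to the citric acid cycle as well. SDHD, a membrane anchor, had 2191, 2205 and 2101 in DMSO, 2079, 2193 and 2200 at 6 h, and 2371, 2442 and 2301 at 72 h. Its 72 h arrays were above the rest, and the log2 difference was 0.13 (SE 0.040, adjusted p = 0.025), called under 13 of 20 alternatives. SDHA, the flavoprotein that oxidises succinate, had 1129, 1047 and 1108 in DMSO, 1160, 1035 and 1054 at 6 h, and 1006, 975 and 954 at 72 h. Its 72 h arrays lay below all others. The log2 difference was -0.16 (SE 0.052, adjusted p = 0.033), and the call was lost under 10 of 20 alternatives. SDHC, the other anchor, differed by 0.046 (adjusted p = 0.57).

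Complex III carries electrons from ubiquinol to cytochrome c. UQCRB, an accessory subunit of it, had 4064, 4338 and 4119 in DMSO, 4057, 4288 and 4166 at 6 h, and 5193, 4882 and 5130 at 72 h. The 72 h arrays did not overlap the others. The log2 difference was 0.28 (SE 0.038, adjusted p = 7.2e-05), and another probe set gave 0.22; the call was lost only with the mean of all probe sets. The electron-carrying CYC1 differed by -0.065 (adjusted p = 0.33) and UQCRC1 by -0.039 (adjusted p = 0.69). CYCS, the carrier between complexes III and IV, differed by -0.034 (adjusted p = 0.58).

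Complex IV, cytochrome c oxidase, reduces oxygen. All of its nuclear subunits are accessory in the sense used here. COX7B had 5854, 6141 and 5851 in DMSO, 6141, 5939 and 6141 at 6 h, and 7051, 6553 and 6562 at 72 h. The 72 h arrays were the highest, and the log2 difference was 0.18 (SE 0.037, adjusted p = 0.0023). A dim second probe set gave -0.033 (adjusted p = 0.95). COX7C had 8281, 8562 and 8445 in DMSO, 8500, 8384 and 8795 at 6 h, and 9614, 9367 and 9087 at 72 h. Again the 72 h arrays were above the other 6, with a log2 difference of 0.15 (SE 0.032, adjusted p = 0.0029). Its other probe sets gave 0.18 and 0.020. COX6C rose by 0.11 on the log2 scale (SE 0.033, adjusted p = 0.020), called under 13 of 20 alternatives.

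Several complex IV subunits come as a common and a tissue-restricted isoform. The restricted forms COX6A2, COX6B2, COX7A1, COX7B2 and COX8C did not pass the filter. COX4I2 passed, with a mean of 43.4 for DMSO, one of 41.2 for 6 h and one of 35.7 for 72 h. Its log2 difference at 72 h was -0.29 (adjusted p = 0.13). Its common counterpart COX4I1 differed by -0.0077 (adjusted p = 0.92). Other common forms were not called either: COX6A1 differed by 0.037, COX6B1 by 0.023, COX7A2 by 0.063 and COX8A by 0.052. COXFA4, formerly NDUFA4 and outside the symbol pattern, differed by 0.036 (adjusted p = 0.49).

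Complex V joins a catalytic F1 head to a membrane ring. ATP5F1D, the delta subunit of its central stalk, had 861, 904 and 893 in DMSO, 975, 899 and 852 at 6 h, and 1193, 1214 and 1107 at 72 h. All 72 h arrays exceeded all others. The log2 difference was 0.40 (SE 0.056, adjusted p = 8.8e-05), and a second probe set gave 0.33. ATP5F1E, the epsilon subunit of the same stalk, had 4474, 4883 and 4406 in DMSO, 4148, 4661 and 4329 at 6 h, and 5338, 5015 and 5616 at 72 h. The 72 h arrays lay above the other 6, and the log2 difference was 0.21 (SE 0.052, adjusted p = 0.0065).

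The c ring, which turns as protons pass, is coded by 3 genes. ATP5MC2 rose by 0.17 on the log2 scale (SE 0.042, adjusted p = 0.0071). ATP5MC3 had 7248, 6872 and 7107 in DMSO, 6920, 6872 and 6919 at 6 h, and 6526, 6497 and 6802 at 72 h. Its 72 h arrays lay below the DMSO arrays by a narrow margin, with a log2 difference of -0.099 (SE 0.032, adjusted p = 0.034) whose call was lost under 10 of 20 alternatives. ATP5MC1 differed by -0.031 (adjusted p = 0.60). ATP5F1A, ATP5F1B and ATP5F1C, also of the F1 head and its stalk, were not called. They differed by -0.050, -0.035 and 0.036. ATP5MJ and ATP5PO (0.14 each) and ATP5PD (0.11) rose, called under 11, 15 and 13 of the 20 alternatives. Their other probe sets gave 0.095, 0.051 and 0.017, none called.

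**Figure D3:**
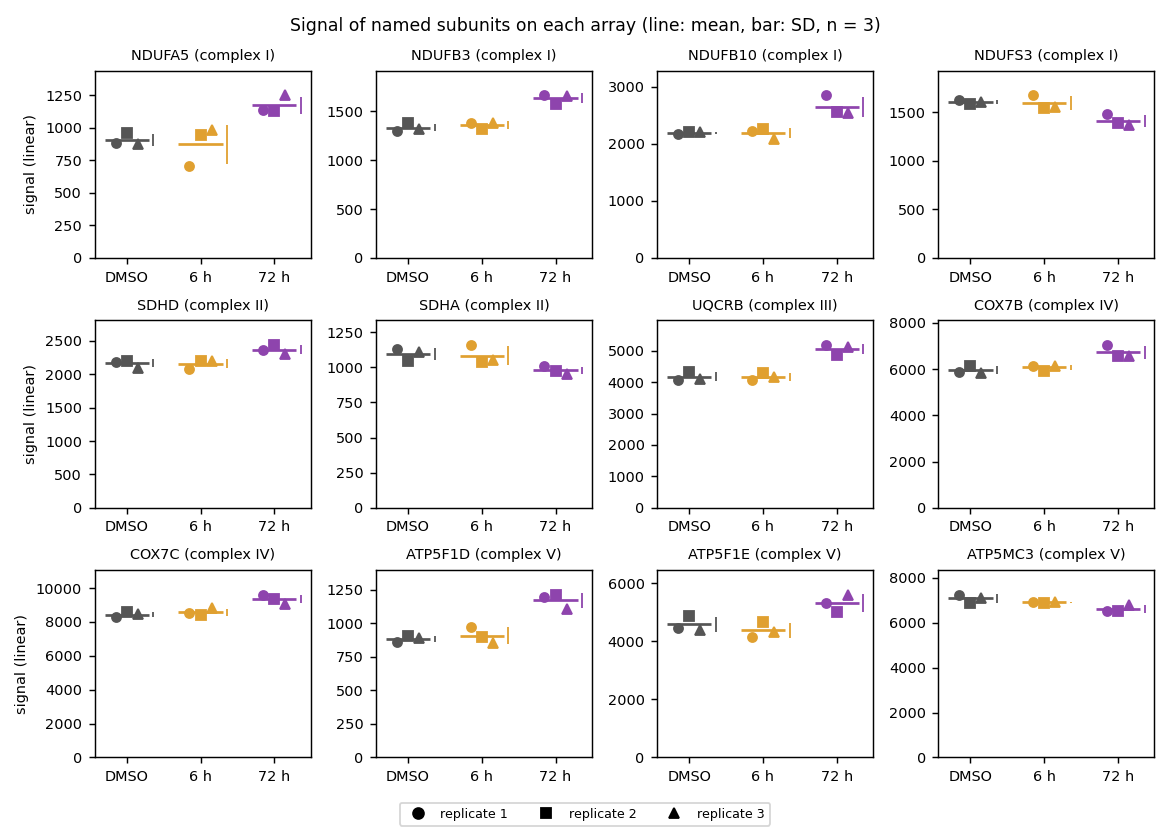
Linear signal (y axis, from 0) on each array for 12 subunits in DMSO, 6 h and 72 h, with the group mean as a line and the SD as a bar beside it, n = 3. ATP5F1D lies at 852 to 975 in DMSO and 6 h and at 1107 to 1214 at 72 h, while SDHA, NDUFS3 and ATP5MC3 are lowest at 72 h.

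Core and accessory subunits were then described apart. Of 18 core subunits tested, 4 rose (ATP5F1D, ATP5MC2, ATP5PO and SDHD) and 3 fell, with a median of -0.018 at 72 h. Among all genes 8.33% rose and 18.3% fell, so the share of core subunits that fell was near the background. Of 53 accessory subunits, 16 rose and 0 fell, with a median of 0.078. These counts hold for the probe set kept. In a limma fit over all probe sets, a dimmer probe set of the accessory NDUFV3 fell (-0.39, adjusted p = 0.032). A dimmer probe set of the accessory ATP5MG rose in that fit (0.26, adjusted p = 0.040). The probe sets kept for NDUFV3 (-0.020) and ATP5MG (0.092) were not called. Within complex I, 0 of 5 core subunits rose and 1 fell, while 9 of 28 accessory subunits rose and 0 fell. The assignment was made after results of these data were known and was revised once with these counts in view, to hold strictly to bacterial counterparts. Under the first assignment, with ATP5F1E as core and ATP5PO and ATP5PB as accessory, 4 of 17 core subunits rose and 3 fell (median -0.031), and 16 of 54 accessory subunits rose and 0 fell (median 0.072). The difference between both kinds was not tested.

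**Figure D4:**
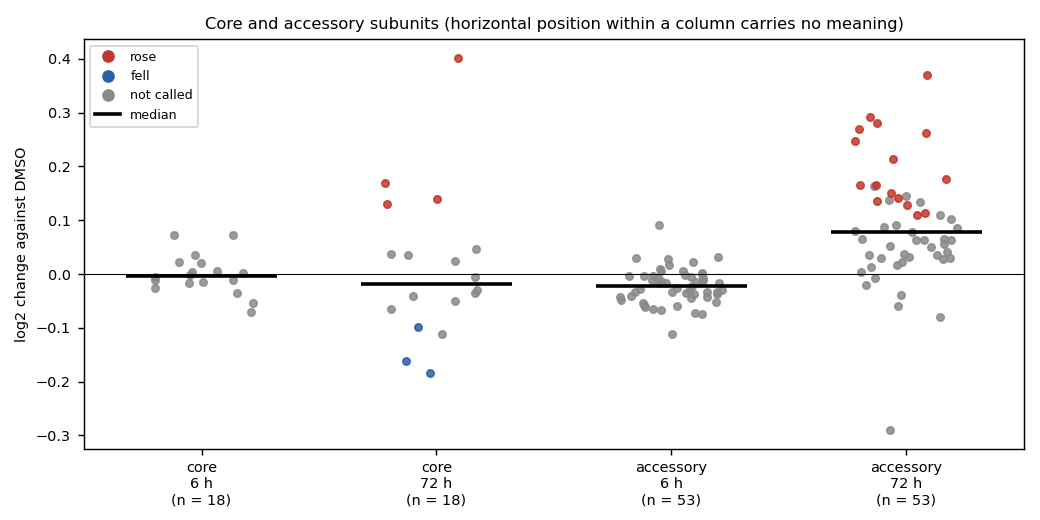
Log2 difference from DMSO (y axis) of each tested subunit, split into core (n = 18) and accessory (n = 53) at 6 h and 72 h, with the median as a line. At 72 h the medians are -0.018 and 0.078, and the 3 subunits that fell by the probe set kept are all core.

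From 6 h to 72 h, 25 subunits rose (background 7.28%) and 1 fell (background 16.7%). In either direction 26 of 72 were called (36.1%), against 24% of all genes, and 40 had an unadjusted p below 0.05, against 35.4%. The 72 h arrays lay above all 6 h arrays for 32 subunits (background 10.7%) and below for 4 (background 22.9%). This comparison shares its 72 h arrays with that against DMSO. The medians were 0.097 for complex I (13 rose and 1 fell), 0.043 for complex II (1 rose), 0.093 for complex III (1 rose), 0.087 for complex IV (4 rose) and 0.070 for complex V (6 rose), against -0.060 over all genes. NDUFA5 rose by 0.44 (adjusted p = 0.0038), ATP5F1D by 0.37 (adjusted p = 0.00026) and NDUFA3 by 0.32 (adjusted p = 0.00016). NDUFS3 was the one that fell, with a log2 difference of -0.17 (adjusted p = 0.013).

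Stretches upstream of the largest called rise and fall of a complex are shown to set side by side the starts of the genes that moved most. NDUFA5 and NDUFS3 stand for complex I, SDHD and SDHA for complex II and COX7B for complex IV, while UQCRB, ATP5F1D and ATP5MC3 are named only. They are the 250 bases before the RefSeq gene start in GRCh38.p14, read along the gene's strand. Capitals mark matches, on either strand, to the palindromic NRF1 motif, CCGGAAG (ETS factors), the extended YY1 motif, GGGCGG (SP1) or TGATGNAA (the CARE element). NDUFA5 lies at chr7:123601652-123601901 on the minus strand. On the plus strand are NDUFS3 at chr11:47578824-47579073, SDHD at chr11:112086623-112086872, SDHA at chr5:218070-218319 and COX7B at chrX:77899218-77899467.
NDUFA5: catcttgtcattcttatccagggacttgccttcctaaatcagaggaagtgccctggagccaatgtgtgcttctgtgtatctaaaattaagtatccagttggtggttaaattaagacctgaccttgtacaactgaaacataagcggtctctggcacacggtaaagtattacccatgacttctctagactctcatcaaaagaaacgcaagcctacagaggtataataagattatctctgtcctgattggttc
NDUFS3: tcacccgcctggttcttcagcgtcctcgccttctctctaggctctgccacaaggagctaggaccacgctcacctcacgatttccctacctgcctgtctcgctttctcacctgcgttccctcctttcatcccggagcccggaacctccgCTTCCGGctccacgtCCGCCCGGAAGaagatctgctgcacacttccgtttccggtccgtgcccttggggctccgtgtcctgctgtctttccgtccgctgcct
SDHD: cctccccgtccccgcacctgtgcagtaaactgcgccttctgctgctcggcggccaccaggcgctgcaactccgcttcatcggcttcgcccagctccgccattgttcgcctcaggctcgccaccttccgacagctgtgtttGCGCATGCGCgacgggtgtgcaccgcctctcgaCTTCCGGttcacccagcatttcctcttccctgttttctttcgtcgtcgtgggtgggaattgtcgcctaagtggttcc
SDHA: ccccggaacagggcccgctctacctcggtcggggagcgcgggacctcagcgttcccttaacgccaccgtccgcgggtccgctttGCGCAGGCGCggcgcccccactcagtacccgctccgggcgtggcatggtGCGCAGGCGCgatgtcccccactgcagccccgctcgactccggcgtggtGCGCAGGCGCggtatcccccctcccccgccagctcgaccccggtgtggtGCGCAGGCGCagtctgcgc
COX7B: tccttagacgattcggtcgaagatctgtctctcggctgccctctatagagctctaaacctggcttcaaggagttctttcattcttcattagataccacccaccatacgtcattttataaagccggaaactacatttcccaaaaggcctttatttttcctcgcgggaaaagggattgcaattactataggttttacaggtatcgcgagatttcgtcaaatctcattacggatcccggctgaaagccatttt
SDHA, which fell, held 4 NRF1 matches, and SDHD, which rose, held 1 NRF1 and 1 ETS match. NDUFS3 held 2 ETS matches, 1 of them overlapping an SP1 match, and NDUFA5 and COX7B held none. Over windows of 250 bases before and 50 after the start, the NRF1 letters were in 24.2% of the 66 subunit promoters in the table, 11.6% of 10270 promoters of genes tested and 6.28% of all 27305. The YY1 letters were in 9.09% of subunit promoters, 2.74% of tested genes and 1.28% of all. For the ETS letters the shares were 27.3%, 18.9% and 10.7%. The SP1 letters were in 59.1%, 69.6% and 44.6%, so subunits lay below the tested genes, and the CARE letters in 1.52%, 1.69% and 3.67%. Of 17 promoters of subunits that rose at 72 h, 5 held NRF1, 3 ETS, 0 YY1, 10 SP1 and 0 CARE letters. Of 43 promoters of those not called, 9 held NRF1, 14 ETS, 6 YY1, 27 SP1 and 1 CARE letters. A match describes letters in a window and is not a binding site.

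Genes that build or feed the complexes are set against the 8.33% of all genes that rose and the 18.3% that fell at 72 h. Of 17 complex I assembly factors, 0 rose and 4 fell (median -0.029): NDUFAF5 by -0.45, NDUFAF6 by -0.36, FOXRED1 by -0.35 and NDUFAF4 by -0.17. Of 17 assembly factors of complexes II, III and V, 4 rose and 1 fell, led by FMC1 (0.63), a complex V factor, and SDHAF3 (0.47), with BCS1L at -0.35. Of 25 complex IV assembly factors, 4 rose and 0 fell, led by PET117 (0.34) and CMC1 (0.27).

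Of 16 citric acid cycle and pyruvate dehydrogenase genes, 6 rose and 2 fell. PDHX (0.42) and SUCLG2 (0.35) led the rises, and IDH3A (-0.41) and PDHA1 (-0.32) were those that fell. In coenzyme Q synthesis 2 of 13 rose and 2 fell, among them COQ5 (0.27) and PDSS1 (-0.69). Of 14 regulators of mitochondrial biogenesis, 2 rose (PPARA at 0.80 and YY1 at 0.11) and 5 fell, among them GABPB1 (-0.47), a subunit of an ETS-family factor, and ESRRA (-0.31). At 6 h 0 genes of any of these lists were called, where 0.473% of all genes were called.

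Markers of the line's own epithelium moved at 72 h as well. Of 9 tested duct and epithelial markers, 1 rose and 6 fell, where 8.33% of all genes rose and 18.3% fell. The summed signal of the 11 on the arrays was 27910 to 29802 at 72 h against 34713 to 35584 in DMSO. Most of that sum came from KRT18, KRT8 and KRT19, with mean signals over 9 arrays of 15837, 7895 and 6548. The part of these marker changes, of the ACTB ratio and of the lower upper quartile in the subunit differences was not tested.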

How the data were processed

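Intensity values of 54675 probe sets on 9 arrays were deposited by the authors on a linear scale (4.54 to 25052). MAS5 was used per the submitters' processing notes; which version, which scaling target and what followed is not given in the sources used here. Because MAS5 treats each array alone, recurring identical values leave the summary behind the table uncertain. Values were taken to log2. Probe sets with 1 gene symbol (41097) were kept, the brightest per gene; 1801 with several symbols and 11777 with none were left out. The 12678 genes at or above the filter were fitted with limma 3.58.1 in R 4.3.3 (lmFit, eBayes with trend, all 9 arrays, Benjamini-Hochberg, threshold 0.05), a fit tested on simulated data. Noise drawn with the fit's own moderated spread, the same in all groups, gave a share of false calls near the threshold. That setting repeats the fit's own model, so it says little about these data. With the raw spread of each group, the share was well above the threshold at 72 h. Raw spreads differ between groups and are also not moderated, so the source of the excess was not tested. The fit assumes that the groups vary alike. The number of arrays limits the precision. Replicate numbers were not used to pair the samples. Correlations of same-numbered deviations ran from -0.26 to 0.20 and those of differently numbered ones from -0.32 to 0.36. With so few arrays per group, these values cannot decide whether the samples were paired.

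Members and lists were chosen with earlier results of these data known. Named were, per complex, up to 3 called rises and falls at 72 h and up to 2 in the other comparisons, with catalytic subunits, isoform pairs and up to 2 genes each way of other lists; the remaining called subunits were named to account for all of them. The 18 alternative settings covered scaling, filter, probe set choice, pseudocount, trend, block and left-out arrays; 2 were added after seeing the data.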

Additional observations from a re-analysis of the deposited data

Results flagged for a closer look

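Of the 26 subunits called between 72 h and 6 h, 9 are named here, up to 2 each way per complex with the largest change. For these 9 the difference from DMSO at 72 h differed from that at 6 h by the test of 72 h against 6 h, in which the shared DMSO arrays cancel. In complex I the log2 gaps were 0.44 for NDUFA5 (adjusted p = 0.0038), 0.32 for NDUFA3 (adjusted p = 0.00016) and -0.17 for NDUFS3 (adjusted p = 0.013). SDHD of complex II gave 0.14 (adjusted p = 0.023) and UQCRB of complex III 0.28 (adjusted p = 0.00011). In complex IV the gaps were 0.15 for COX7B (adjusted p = 0.0094) and 0.14 for COX6C (adjusted p = 0.0057). In complex V they were 0.37 for ATP5F1D (adjusted p = 0.00026) and 0.28 for ATP5F1E (adjusted p = 0.0012). The 6 h differences from DMSO of these subunits lay between -0.067 (ATP5F1E) and 0.035 (ATP5F1D).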

How the results depend on the processing

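The count of 0 subunits at 6 h held under all 20 alternatives. At 72 h against DMSO the 23 calls became 9 with arrays centred on their medians (9 higher, 0 lower), 13 with the mean of all probe sets and 9 without the trend, and 15 to 25 on leaving out 1 array (15 without DMSO replicate 3). At 72 h against 6 h the 26 became 11, 12 and 11, and 18 to 29. Quantile normalization moved the median of all genes to 0.0017, with 13.1% of all genes higher and 15.6% lower, and 26 subunits higher and 1 lower. The replicate block gave 21 higher and 3 lower at 72 h against DMSO, 27 and 2 at 72 h against 6 h, and 0 at 6 h. NDUFA3, NDUFB3, NDUFB10 and ATP5F1D were called at 72 h under all 20. The planned reassignment of NDUFA4 was not run, since the table names it COXFA4. The causes were not tested.

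Medians by complex moved as follows. With the mean of probe sets, complex V was -0.027 at 6 h and 0.033 at 72 h, and complex III -0.034 at 72 h and -0.016 at 72 h against 6 h. With centring, complex IV was 0.091 and complex V 0.094 at 72 h, and complex V 0.099 at 72 h against 6 h, where cyclic loess gave 0.053. Without 72 h replicates 2 and 3, complexes I, III, IV and V were 0.14, 0.13, 0.11 and 0.083 at 72 h, and 0.18, 0.17, 0.14 and 0.12 against 6 h. Leaving out 1 array gave 0.018 to 0.083, 0.018 to 0.074, 0.033 to 0.088, 0.035 to 0.072 and 0.050 to 0.073 for complexes I to V at 72 h. Against 6 h it gave 0.055 to 0.12, 0.0031 to 0.10, 0.050 to 0.13, 0.076 to 0.12 and 0.060 to 0.097 for complexes I to V.

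Signs turned at 72 h for subunits that were not called. With the mean of probe sets NDUFS1 was -0.073, COX5A -0.0047, ATP5F1C -0.079 and COX6A1 -0.10. With centring CYCS was 0.0039, COX4I1 0.030, ATP5F1B 0.0026 and ATP5MC1 0.00727, and with quantile normalization COX4I1 was 0.014. Leaving out 1 array gave NDUFS1 -0.00991 and -0.017 (range to 0.048), NDUFS7 -0.014, COX6B1 -0.023 and COX4I1 0.0021, 0.0083 and 0.017 (range from -0.049). Without 72 h replicates 2 and 3 CYC1 was 0.019, COX4I1 0.074 and ATP5MC1 0.0062.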

Other observations

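Among mitochondrial chaperones and proteases, 4 of 15 rose and 2 fell at 72 h, where 8.33% of all genes rose and 18.3% fell. OMA1, a protease of the inner membrane, differed from DMSO by 0.66 on the log2 scale (adjusted p = 0.0010) and LONP1, a matrix protease, by 0.24 (adjusted p = 0.015). HTRA2, of the intermembrane space, differed by -0.50 (adjusted p = 0.0035) and TRAP1, a chaperone, by -0.14 (adjusted p = 0.037). Among genes of the cristae and of adenine nucleotide exchange, 3 of 17 rose and 4 fell, the falls near that background. ATP5IF1, the inhibitor of reverse ATP synthase activity, differed by 0.39 (adjusted p = 0.0054), APOOL by 0.19 (adjusted p = 0.031), SAMM50 by -0.25 (adjusted p = 0.0052) and VDAC1, an outer membrane channel, by -0.21 (adjusted p = 0.00059).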
